A study of Mus musculus with 6 samples.

Results

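The laminin- and collagen-binding integrin subunits are described here in mouse blastocysts that were cultured with a miR-30d mimic or with a scrambled control. The set holds 6 genes, Itga7, Itga6, Itga3, Itga2, Itga1 and Itgb4, of the 22485 genes named on the array. They were picked by gene name, with older names matched by Entrez identifier, and all 7 of their probes were used, 2 for Itga1 and 1 for each of the others. All 7 probes lay above the filter on dim probes, which left out the lowest 25% of named probes by mean signal.

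Embryos of the B6C3F1 hybrid strain were flushed from the oviduct on day 2 of pregnancy. The dams were 6 to 8 weeks old and had been induced to ovulate with 10 IU each of pregnant mare serum gonadotropin and hCG. The embryos then spent 72 hours in CCM-30 medium with 400 nM of either the mir-30d MIMIC (mimic group, n = 3 arrays) or an oligonucleotide labelled Scramble-Alexa 488 (scramble group, n = 3 arrays). RNA of whole day 5 blastocysts, from 30 embryos a condition, was labelled with Cy3 and hybridised to 1-colour arrays. The culture in medium and the exposure to a synthetic RNA were common to both groups. A dye is named for the scramble oligonucleotide and none for the mimic, and embryos without either were not analysed here, so an effect of the dye cannot be told apart from one of the mimic. The samples are titled biological replicates, but nothing states that the cultures came from separate matings or days, so every p-value refers to the spread among these arrays, which may be technical.

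Integrins are receptors made of 1 alpha and 1 beta chain that tie the matrix outside a cell to its cytoskeleton. The alpha 3, alpha 6 and alpha 7 chains pair with beta 1 to bind laminins, the chief proteins of basement membranes, and alpha 6 also pairs with beta 4, whose long cytoplasmic tail joins keratin filaments at hemidesmosomes. The alpha 1 and alpha 2 chains pair with beta 1 to bind collagens and some laminins, through an extra domain inserted in the alpha chain. Mouse embryos carry integrin receptors before they implant, and the alpha 7 chain has been described in mouse trophoblast around implantation, where laminin-rich matrix is met by the outgrowing cells.

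Of the 6 genes, Itga7 was the one whose mimic and scramble arrays did not overlap, and its signal was 2.51-fold higher with the mimic. In whole embryos, a change in the number of cells of a type and a change in RNA per cell cannot be told apart. Itga6 was bright and nearly equal in both groups. Itgb4, Itga3, Itga2 and Itga1 had lower means with the mimic on their brightest probes, with overlapping groups, and the last 3 were among the dim probes. None of the 7 probes passed an adjusted p of 0.05 in the limma fit across all probes, where 0 of 24769 probes passed (0%). At an unadjusted p under 0.05 there were 770 probes. The median log2 difference of the 6 genes, mimic minus scramble, was -0.37, beside 0.02 over all genes. This median rested on the replicate 1 arrays, as it was -0.09 without scramble replicate 1 and -0.01 without both.

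**Figure D1:**
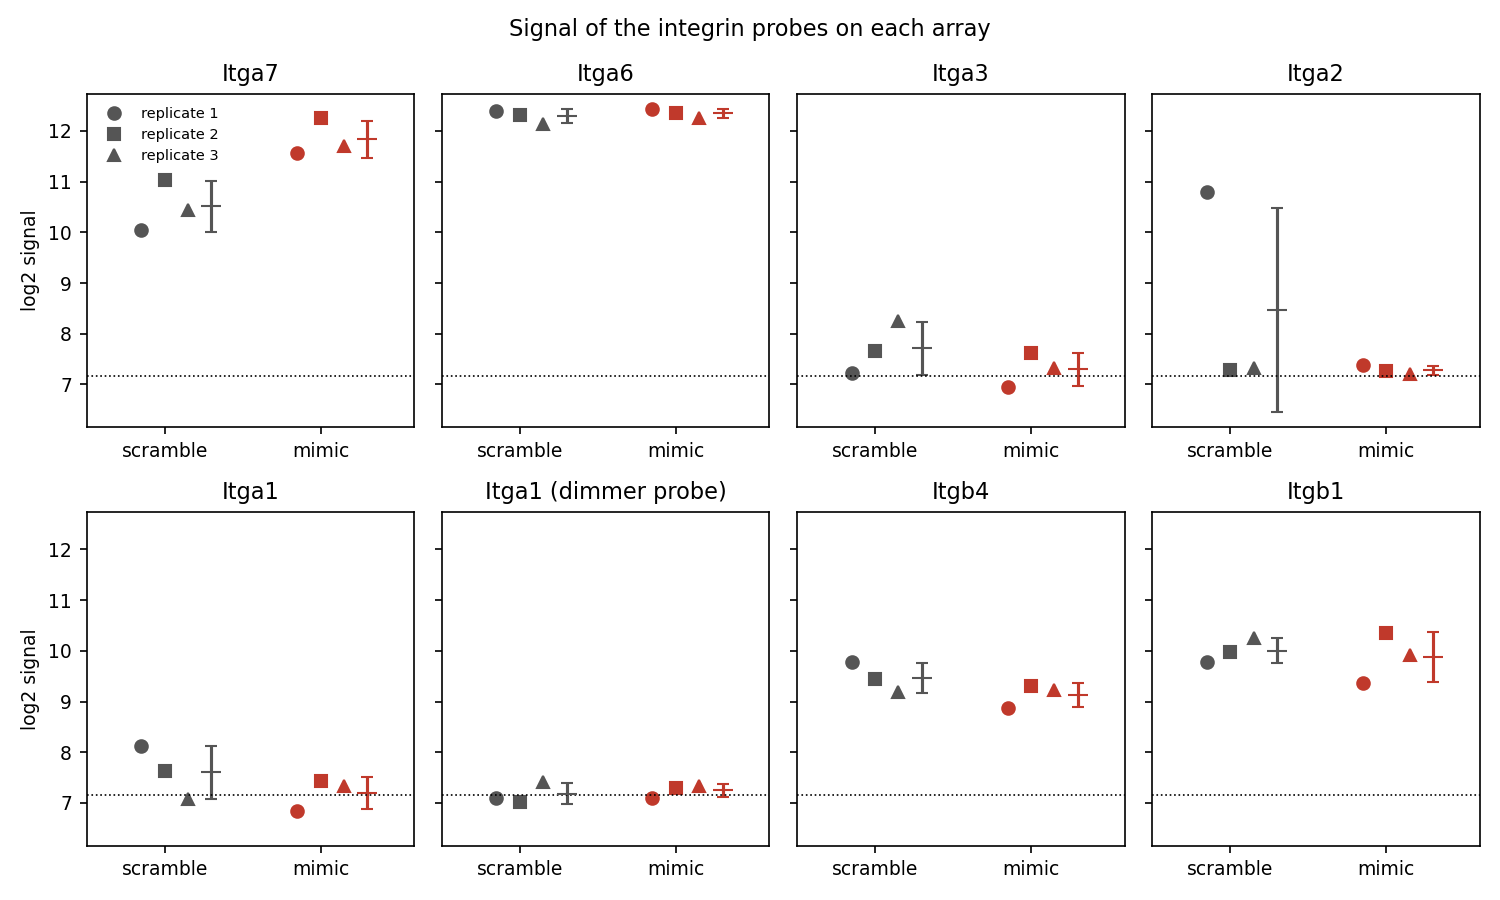
Log2 signal (y axis) of the 7 integrin probes and of the brighter Itgb1 probe on each of the 6 arrays. Grey symbols are scramble and red symbols mimic arrays, the shape gives the replicate number, the bar with whiskers is the mean ± SD (n = 3), and the dotted line is the filter level of 7.16. Itga7 is the only panel in which every mimic array lies above every scramble array, and the wide whisker of Itga2 comes from scramble replicate 1.

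Itga7 encodes the alpha 7 chain, a laminin receptor chain best known from skeletal muscle. Its log2 signal was 10.05, 11.03 and 10.45 on scramble replicates 1 to 3 and 11.57, 12.25 and 11.69 on mimic replicates 1 to 3. The lowest mimic array lay 0.53 above the highest scramble array. The group means were 10.51 ± 0.49 and 11.84 ± 0.36 (SD, n = 3 each), which moved the probe from above 89.5% of all features to above 94.9%. The log2 difference was 1.33 (SE 0.26, 95% interval 0.72 to 1.93), with an unadjusted p of 0.00078 and an adjusted p of 0.979 in limma. It was the 13th smallest p of the 24769 probes, and 38 probes had a difference at least as large. A two-sided exact permutation test gave p = 0.1, the smallest that 3 arrays against 3 allow.

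Itga7 was thus 1 of 7 integrin probes with an unadjusted p under 0.05 on the higher side, a share that was 1.78% over all probes. It was also the 1 probe with all mimic arrays above all scramble arrays, which was so for 5.86% of all probes. Within replicate numbers, the mimic array exceeded the scramble array by 1.52, 1.21 and 1.25 on the log2 scale. Itga7 is among the adhesion genes that the study itself picked out on these arrays, so its direction here is not independent evidence. With the replicate number as a block in the fit the standard error of Itga7 was 0.10 and its adjusted p was 0.0989. In that fit 1 of 24769 probes passed (0.00404%), and it was not an integrin probe.

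Itga6 encodes the laminin-binding alpha 6 chain, which can pair with beta 1 or beta 4. Its log2 signal was 12.40, 12.32 and 12.13 on the scramble arrays and 12.44, 12.35 and 12.26 on the mimic arrays. All 6 values fell within 0.30 of each other, and the groups overlapped. The log2 difference was 0.06 (SE 0.13), and its 95% interval of -0.24 to 0.37 did not reach the lower bound of the interval of Itga7. The limma adjusted p was 0.983, and the difference was -0.01 without scramble replicate 3.

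Itgb4 encodes the beta 4 chain, the partner of alpha 6 in hemidesmosomes. Its log2 signal was 9.77, 9.45 and 9.18 with scramble and 8.86, 9.31 and 9.22 with the mimic. The highest and the lowest of these values were the replicate 1 arrays, and the groups overlapped. The log2 difference was -0.34 (SE 0.22, 95% interval -0.85 to 0.17, adjusted p = 0.979 in limma). Without both replicate 1 arrays it was -0.05. Itgb1, the shared partner of all 5 alpha chains here, read 9.77, 9.99 and 10.26 on the scramble arrays and 9.37, 10.36 and 9.91 on the mimic arrays. Its values overlapped and its log2 difference was -0.12 (SE 0.26, 95% interval -0.70 to 0.46), and a dimmer Itgb1 probe had -0.05 (SE 0.43).

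Itga3, the third laminin-binding alpha chain, had a log2 signal of 7.23, 7.65 and 8.26 with scramble and 6.96, 7.62 and 7.32 with the mimic. These readings went from 6.96 to 8.26, on both sides of 7.22, the median level of features without a gene name, and the groups overlapped. The log2 difference was -0.41 (SE 0.32, adjusted p = 0.979 in limma), and it was -0.14 without scramble replicate 3, the brightest array for this probe. No detection flags were used here, so the values near this level have no known detection limit and their differences can understate the true ones.

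Itga2 encodes a collagen-binding alpha chain. It read 10.79 on scramble replicate 1 and 7.29 and 7.32 on the other scramble arrays, against 7.37, 7.26 and 7.20 on the mimic arrays. A single array thus set its mean apart, and the remaining 5 arrays spanned 7.20 to 7.37. The log2 difference of -1.19 (SE 0.83, 95% interval -3.06 to 0.69, adjusted p = 0.979 in limma) was -0.03 without scramble replicate 1. Isolated bright readings were more common on the replicate 1 arrays: scramble replicate 1 lay at least 2 log2 units above all other arrays on 100 of the named probes and mimic replicate 1 on 68, against 2 to 9 on each of the other arrays. Their part in the Itga2 value was not tested.

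Itga1 encodes the other collagen-binding alpha chain of the set. In the mouse gene table Itga1 and Itga2 neighbour each other. The brighter Itga1 probe read 8.12, 7.63 and 7.08 with scramble and 6.85, 7.42 and 7.33 with the mimic, with the highest and the lowest value again on the replicate 1 arrays. Its log2 difference was -0.41 (SE 0.31, adjusted p = 0.979 in limma), and 0.03 without both replicate 1 arrays. The dimmer Itga1 probe read 7.11, 7.03 and 7.41 with scramble and 7.11, 7.29 and 7.34 with the mimic. Its log2 difference was 0.06 (SE 0.18). The 2 probes of Itga1 therefore pointed in opposite directions, both with overlapping groups near the dim end.

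**Figure D2:**
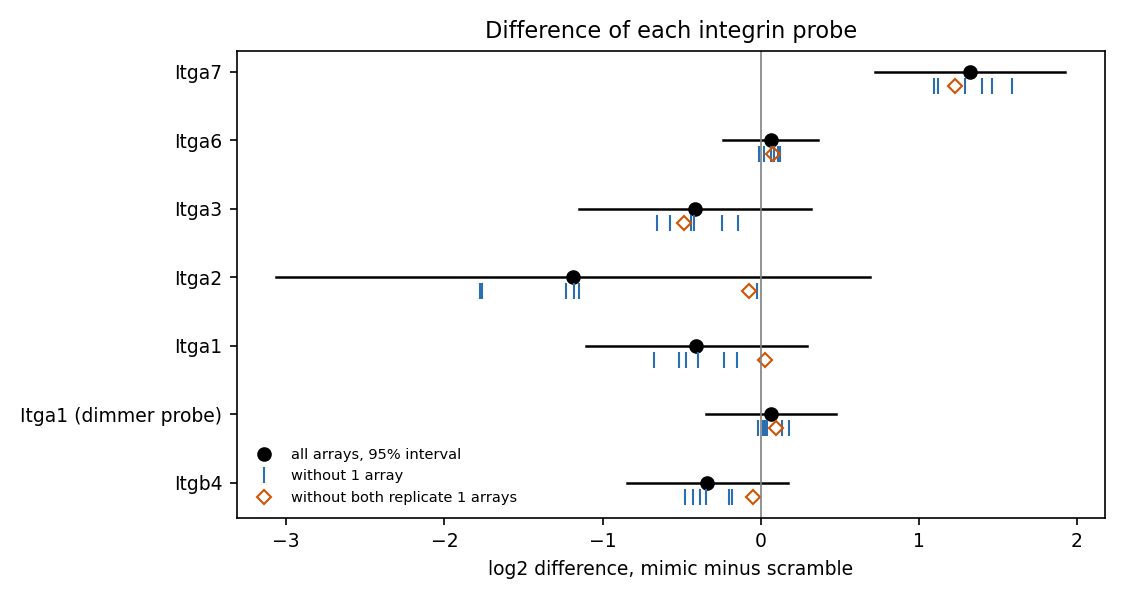
Log2 difference between mimic and scramble (x axis) for each of the 7 integrin probes. Black circles with lines are the limma estimate and its 95% interval from all arrays, blue ticks are the estimates with 1 array left out, and orange diamonds those without both replicate 1 arrays. Every estimate for Itga7 lies between 1.10 and 1.59, while Itga2 and Itgb4 move to -0.07 and -0.05 without the replicate 1 arrays.

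To ask whether Itga7 differed from its relatives in its response, the log2 signal of Itga7 minus that of each other gene was taken within each array and compared between groups. Only the change of this log2 ratio between arrays is read here, since levels of different probes are not comparable. Against Itga6 the ratio was higher with the mimic by 1.26, and its SD was 0.54 over the scramble arrays and 0.38 over the mimic arrays (n = 3 each). Against Itgb4 it was higher by 1.66, against Itga3 by 1.74, against Itga1 by 1.73 and against Itga2 by 2.51. In all 5 comparisons the 3 mimic arrays lay above the 3 scramble arrays, but the 5 ratios share the Itga7 values, whose groups did not overlap by themselves, and are not independent. The ratios to Itga1, Itga2 and Itga3 also rest on dim probes and carry the limit given for those. Each gave p = 0.1 in a two-sided exact permutation test, and p = 0.1 after adjustment over the 5 pairs, so none could pass 0.05 at this number of arrays. Without scramble replicate 1 the Itga2 comparison gave 1.12 in place of 2.51.

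**Figure D3:**
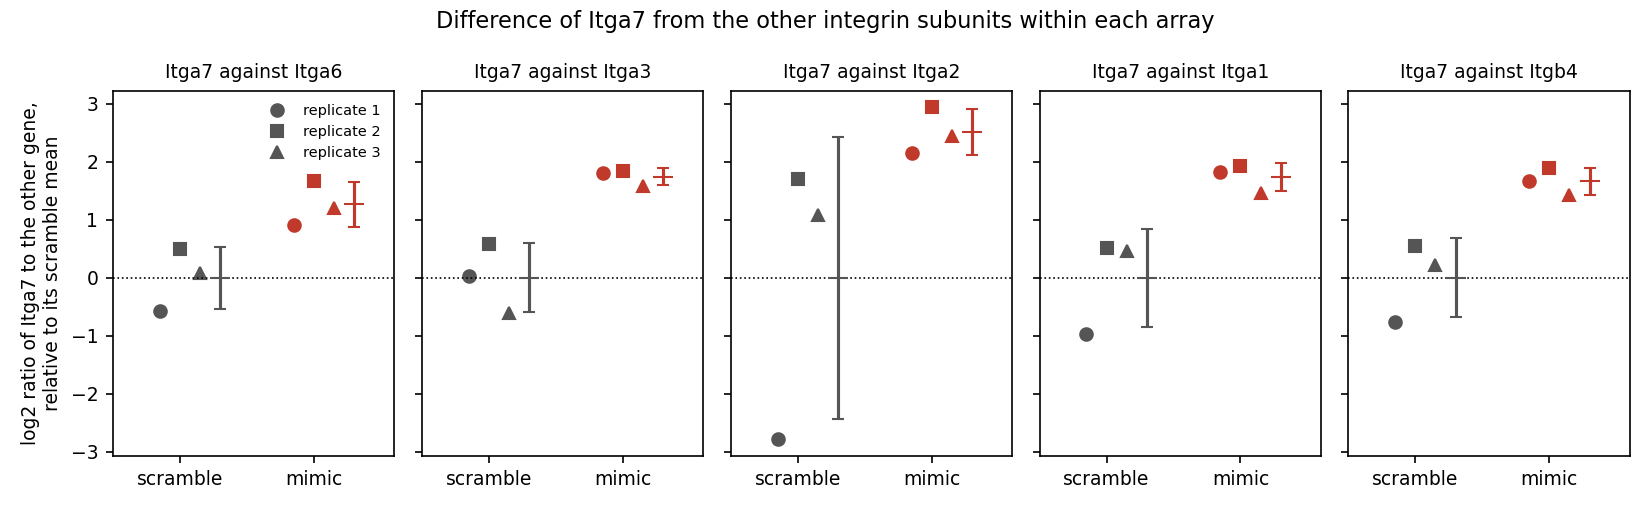
Log2 ratio of Itga7 to each of the other 5 integrin genes within an array, relative to the mean ratio of the scramble arrays (y axis, 0 at the dotted line). Grey is scramble and red mimic, symbols give the replicate number and the bar with whiskers is the mean ± SD (n = 3). All red symbols lie above all grey ones in each panel, and the spread of the scramble ratios is widest for Itga2 (SD 2.43).

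Partner, ligand and adapter genes were described in 9 lists, with 77 genes above the filter. Groups did not overlap in 13 of these genes, 9 higher and 4 lower with the mimic, and over all genes this share was 9.7%. In 8 of the 77 genes the mean of only 1 group lay above the filter level. This was the mimic mean in 6 and the scramble mean in 2, so the direction of these genes is favoured by the filter. Itga4, Bcam, Npnt and Krt5 were among these 8 and also among the 13 genes whose groups did not overlap. Of 8 beta-list genes, which include Itgb1 and the integrin-like Itgbl1, 6 were above the filter, and 8 of 13 other alpha chain genes were. In limma 0 of them passed the adjusted threshold. Itgb3 was the 1 gene among them with an unadjusted p under 0.05, a share of 3.2% over all genes. Itgb3, which pairs with alpha v to bind RGD-containing ligands, read 6.84, 8.67 and 7.75 with scramble and 9.23, 10.29 and 9.98 with the mimic. Its groups did not overlap, and nor did those of Itga4, higher, and Itgb5, lower. For Itgb3 the log2 difference was 2.08 (SE 0.46, adjusted p = 0.979 in limma), and a dimmer probe had 0.30. Itgb5 had -0.30 (SE 0.16) and Itgb7 0.10 (SE 0.20). Of the alpha chains, the leukocyte chains Itga4 and Itgal had log2 differences of 0.28 (SE 0.16) and 0.40 (SE 0.27), both with a scramble mean under the filter level. Itgal had 0.14 without both replicate 1 arrays. Itga10, a further collagen-binding chain, had -0.45 (SE 0.38), which was 0.04 without both replicate 1 arrays.

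Among the ligands, 0 of 9 laminin chain genes passed in limma, with 0 at an unadjusted p under 0.05. Their signal was higher in 7 genes and lower in 2, while 53.2% of all genes were higher. The median log2 difference was 0.15, and it was -0.0034 without both replicate 1 arrays. Among the higher genes, Lama4 and Lamc3 had scramble means of 7.08 and 7.07, under the filter level, so they passed through their mimic arrays. The beta 1 chain gene Lamb1 read 12.58, 13.79 and 12.99 with scramble and 13.27, 14.15 and 13.56 with the mimic. Its groups overlapped, the log2 difference was 0.54 (SE 0.33), and replicate 2 was the brightest array in both groups. Lamc1, the gamma 1 chain gene, had 0.46 (SE 0.26) and Lama5, the alpha 5 chain gene, -0.19 (SE 0.13). Lama4 had the largest value of the list, 0.95 (SE 0.70), and was bright on mimic replicate 1 alone, at 9.95 against at most 7.45 elsewhere. Without both replicate 1 arrays it had -0.03.

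Among collagen genes 4 of 8 were higher and 4 lower, with 0 past the adjusted threshold and 0 at an unadjusted p under 0.05 in limma. The basement membrane collagen gene Col4a1 had a log2 difference of 0.45 (SE 0.25), and its 10 probes went from 0.30 to 0.46. Its partner chain gene Col4a2 had 0.27 (SE 0.27), which came to 0.0086 when scramble replicate 1 was dropped and to 0.04 when mimic replicate 2 was. Col2a1, a cartilage collagen gene near the dim end, had -0.36 (SE 0.32). Of 8 genes for linkers and other matrix proteins 5 were higher and 3 lower, with 0 past the adjusted threshold and 1 at an unadjusted p under 0.05 in limma. Hspg2, the gene of the basement membrane proteoglycan perlecan, read 9.83, 10.11 and 10.06 with scramble and 10.84, 10.43 and 10.56 with the mimic. These groups did not overlap, and the log2 difference was 0.61 (SE 0.16, unadjusted p = 0.00475 and adjusted p = 0.979 in limma), with 0.31 on its second probe. The fibronectin gene Fn1 had 0.31 (SE 0.14) and its groups did not overlap, higher with the mimic. Npnt, which encodes the alpha 8 beta 1 ligand nephronectin, had -0.35 (SE 0.21) on its brighter probe, with no overlap and a mimic mean under the filter level, and 0.41 on the other.

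**Figure D4:**
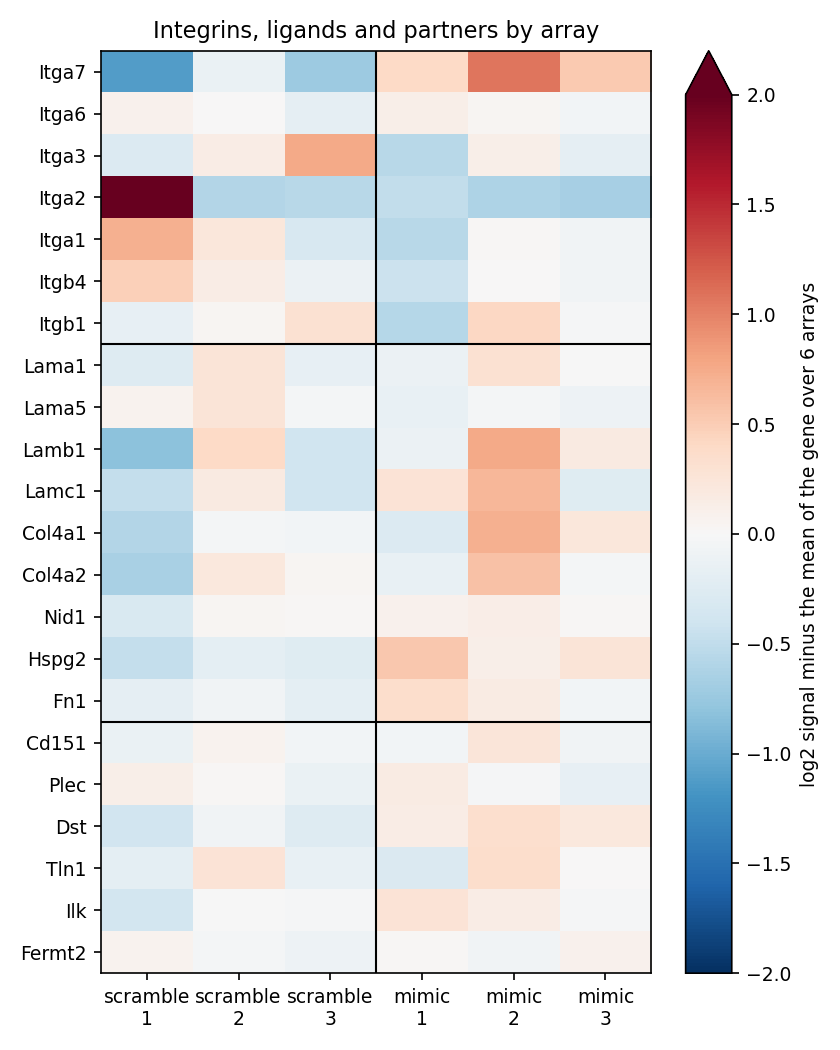
Log2 signal of each gene minus its mean over the 6 arrays (colour, cut at ±2), for the integrin genes, for ligand genes and for partner genes, by array. The ligand and partner genes were chosen for display after their values were seen. Itga7 lies below its mean on the scramble arrays, though only slightly on scramble replicate 2, and is red on the mimic arrays. Itga6 is near white throughout, and Lamb1 is reddest on mimic replicate 2.

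Receptors for laminin and collagen outside the integrin family had positive log2 differences in 8 of 8 genes, against 53.2% of all genes, with a median of 0.09. Several were close to 0, Sdc4 at 0.0031, Dag1 at 0.02 and Gp6 at 0.02, and without both replicate 1 arrays Sdc4 had -0.26 and Dag1 -0.07. Other probes of Rpsa and Ddr2 had -0.50 and -0.10. In limma 0 of them passed and none reached an unadjusted p of 0.05. Bcam, a laminin receptor of the immunoglobulin family, had 0.48 (SE 0.22), with no overlap and a scramble mean of 7.10, under the filter level. The syndecan gene Sdc1 had 0.55 (SE 0.36) and the collagen receptor kinase gene Ddr1 had 0.12 (SE 0.28). All 3 were dim, and their highest reading was 8.31, that of Sdc1 on mimic replicate 2. Tetraspanins, membrane proteins that associate laterally with laminin-binding integrins, were higher in 3 of 7 genes, with 0 past the adjusted threshold and 0 at an unadjusted p under 0.05 in limma. Cd82 had -0.27 (SE 0.13) on its brightest probe and up to 0.35 on its others, Cd63 had -0.39 (SE 0.20) and Tspan4 had 0.53 (SE 0.30). The groups of Cd82 and Tspan4 did not overlap. Cd151, the tetraspanin most closely tied to the alpha 3 and alpha 6 chains, had 0.08 (SE 0.14) on its brighter probe and -0.335 on the other.

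Inside the cell, 18 genes of integrin activation and adapters had a median log2 difference of 0.03, with 10 higher, 8 lower, 0 past the adjusted threshold and 0 at an unadjusted p under 0.05 in limma. Tln2, a talin gene, had 0.48 (SE 0.26) on its brighter probe, with no overlap, and -0.28 on the other. Ilk, the integrin-linked kinase gene, had 0.27 (SE 0.16) and the adapter gene Bcar1, whose groups did not overlap, 0.22 (SE 0.15). Without both replicate 1 arrays the brighter Tln2 probe had 0.19, Ilk 0.09 and Bcar1 0.19. Of 5 hemidesmosome genes 2 were higher and 3 lower, with 0 past the adjusted threshold in limma. Dst, whose epithelial form anchors keratin to beta 4, read 7.51, 7.83 and 7.63 with scramble and 8.05, 8.24 and 8.11 with the mimic. Its groups did not overlap, and the log2 difference was 0.48 (SE 0.27), with 0.18 on its second probe. Plec, the plectin gene, had -0.01 (SE 0.14). The basal keratin genes Krt5 and Krt14 lay at the dim end and had -0.76 (SE 0.28) and 0.08 (SE 0.20). Krt5 was the 1 gene of this list with an unadjusted p under 0.05, its groups did not overlap, and its second probe had 0.10. Its mimic mean of 6.86 lay under the filter level, so it passed through its scramble arrays, and its log2 difference was -0.45 without scramble replicate 1.

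**Figure D5:**
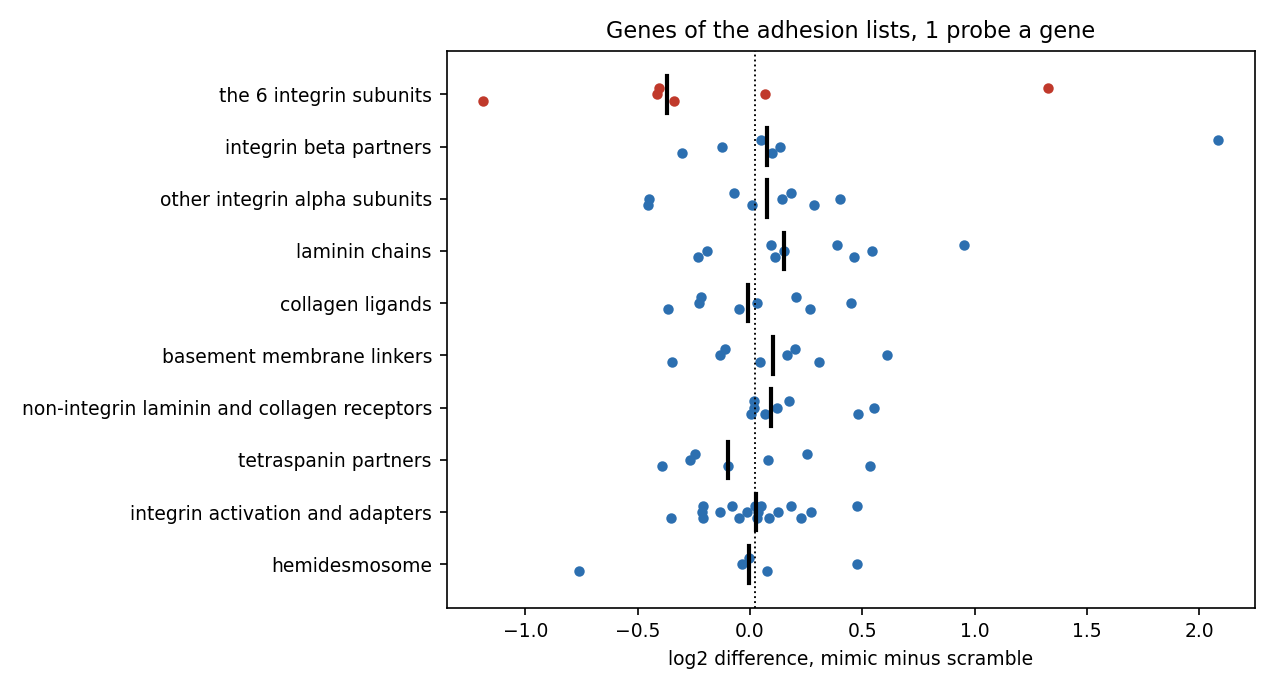
Log2 difference between mimic and scramble (x axis) for the genes of 9 adhesion lists in blue and the 6 integrin subunits in red, 1 probe a gene. Points are genes, short black bars the median of each list, and the dotted line the median of all genes at 0.02. Itga7 at 1.33 and Itgb3 at 2.08 are the points farthest to the right, and the medians of the 9 lists lie between -0.10 and 0.15.

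The profile of each integrin gene over the 6 arrays was set against up to 13509 genes with a range of at least 0.5. With 6 arrays and so many genes, high correlations arise in any case, so the values are a description only. Nearest to Itga7 were Dst (Pearson r = 0.996), Plcxd2 (0.993) and Bloc1s2 (0.993), the first of them the hemidesmosome gene above. Itga6 was nearest to Stk36 (0.989), Smad5 (0.984) and Phka2 (0.983), genes with a low value on scramble replicate 3. Itga3 was nearest to Fkbp7 (0.993), Sh2d4a (0.990) and Armc7 (0.987). Itga2 was nearest to Abcd2 (0.999), Olfr1061 (0.999) and Naaladl1 (0.999), each with its highest reading on scramble replicate 1. Itga1 was nearest to 4930597O21Rik (0.997), Cntrl (0.994) and Slc5a4b (0.993), and Itgb4 to Fam193b (0.996), Rhno1 (0.995) and EG545802 (0.994). The brighter Itga1 probe and Itgb4 themselves had r = 0.984 over the 6 arrays, while Itga7 had 0.21 with Itga6 and 0.11 with Itgb1.

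The blastocyst label was checked against marker genes. All 10 trophectoderm, 8 inner cell mass and 8 primitive endoderm markers had a mean log2 signal above 8, a level chosen after the values were seen. None of 9 muscle, 5 blood or 6 stromal markers did. The summed linear signal of the muscle markers was 1257 to 1434 on scramble and 1226 to 1381 on mimic arrays. Which cells gave the signal of Itga7 was not tested. A few markers of other lists were bright, namely Foxl2 of the cumulus list, Krt7 of the oviduct list and 2 of 8 endothelial markers, Kdr the brightest. The summed endothelial markers went from 2074 to 4109 with scramble and from 1980 to 6410 with the mimic, and the cumulus markers from 5502 to 11555 and from 5244 to 9972. The primitive endoderm, an early source of laminin and collagen IV, had 6 of 8 markers higher and a median log2 difference of 0.37. In the inner cell mass list 6 of 8 were higher (median 0.10), and in the trophectoderm list 3 of 10 (median -0.11). The summed primitive endoderm markers went from 9177 to 10720 with scramble and from 10291 to 11686 with the mimic, which overlap. Their part in the values of the laminin, collagen and integrin genes was not tested. The summed trophectoderm markers went from 118407 to 139879 with scramble and from 102409 to 133385 with the mimic, overlapping ranges.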

How the data were processed

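The authors' deposited table holds log2 signal of 45220 features on 6 arrays. How the background was treated and how arrays were scaled is not stated in what was used here. The medians of the arrays, 7.37 to 7.38, nearly coincide, so a change shared by most genes cannot be seen. Features were named from the platform annotation, and 98.2% of the 33026 named features were matched to RefSeq symbols (GRCm38.p6). The array's build and probe sequences were not used, so splice forms are not told apart and no coordinates are given.

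Named probes in the lowest 25% by mean were left out, and 24769 probes of 17399 genes were fitted with limma 3.58.1 in R 4.3.3 (lmFit, eBayes with a trend, two-sided, Benjamini-Hochberg over all probes). The fit was also run on simulated data, but the share of true changes it finds at the spread of these arrays is not given here. The median standard error was 0.251, and the number of arrays limits the precision. Lists use the brightest probe of a gene. All differences are mimic minus scramble. Single values had an exact permutation test. Figures used matplotlib 3.10.9.

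The genes, lists and tests were chosen with earlier results of these data known. The genes named are the 6 integrins, Itgb1, the 3 genes of each list with the smallest unadjusted p, and the 3 most similar profiles of each integrin. Lama4, Lamc3, Cd151, Plec, Sdc4, Dag1, Gp6, Rpsa, Ddr2 and the marker genes were named after their values were seen. Col6a3 and Ptk2 were not analysed here. Each array's departures from its group mean were correlated with those of the array of the same number in the other group, which gave 0.336, 0.352 and 0.209 for replicates 1 to 3, each over 0.1, so the numbers were taken to pair the arrays, from the data and not from the labels. Scramble replicate 2 with mimic replicate 3 gave 0.196 and scramble replicate 3 with mimic replicate 2 gave 0.129, both also over 0.1. Replicate 1 thus stood apart more clearly than replicates 2 and 3 did from each other, and the pairing of those 2 is less certain. The departures within a group cancel out, so these correlations are not independent of each other. The fit without the block stayed the main one, since the labels do not state that the numbers mark a shared day. Alternatives changed the filter, the probes used, the normalization, the variance prior, the block and the arrays included.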

Additional observations from a re-analysis of the deposited data

How the results depend on the processing

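Itga7 was higher with the mimic in every alternative run, from 1.10 when scramble replicate 1 was dropped to 1.59 when scramble replicate 2 was, and it passed the adjusted threshold in none. Its adjusted p went from 0.0989 with the replicate block to 1 without mimic replicate 3. The replicate block changed the count of probes called from 0 to 1 and the probes with an unadjusted p under 0.05 from 770 to 1755. Dropping scramble replicate 2 gave 1320 such probes, and dropping both replicate 1 arrays 1470. The block changed no call of the integrin genes. When single arrays were dropped, Itga6 ranged from -0.0117 to 0.12, the dimmer Itga1 probe from -0.0155 to 0.18, Itgb1 from -0.36 to 0.13, its dimmer probe from -0.38 to 0.34 and Ddr1 from -0.0631 to 0.26. With both replicate 1 arrays dropped, Itga1 had 0.0267, Itgb1 0.0167, its dimmer probe 0.005, Itga10 0.0355 and Col2a1 0.11. With the lowest 50% of probes left out, Itga1 gave no value. Npnt had 0.0339 as the mean of its probes. The ratio of Itga7 to each other integrin kept its direction in the alternatives run for it, which were quantile normalization, the mean of probes, each array dropped in turn and the removal of both replicate 1 arrays, which was added for this ratio after the data had been seen. The cause of these shifts was not tested. The values near the dim end, those of Itga1, Itga2 and Itga3 above all, limit what the arrays can show.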
